A study of Mus musculus with 8 samples.

Results

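The PIWI proteins are the Argonaute family members of germ cells, and 3 of them, *Piwil1* (MIWI), *Piwil2* (MILI) and *Piwil4* (MIWI2), were followed in male germ cells with and without *Mgat2*. They were found by gene symbol in a table of 55357 genes. All 3 were among the 20187 genes that reached 1 TPM (a transcript level corrected for gene length and library depth) in at least 1 library. Germ cells came from testes of C57BL/6 pups at 15 days after birth. The 4 controls were *Mgat2*[F/F], in which both copies of *Mgat2* are flanked by lox sites, and the 4 cKO (conditional knockout) males were *Mgat2*[F/F]:*Stra8*-iCre, with the same floxed copies and a Cre recombinase driven by the *Stra8* promoter in spermatogonia. The controls carried no Cre, so loss of *Mgat2* and presence of Cre cannot be told apart here. Each mouse gave 1 non-stranded, polyadenylated RNA library, numbered 1 to 4 within its genotype.

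PIWI proteins bind piRNAs, small RNAs that guide them to transposon transcripts and other targets. In mice the members differ in time. PIWIL4 enters the nucleus of fetal and newborn male germ cells, where it directs DNA methylation to transposons. PIWIL2 is cytoplasmic and is made from fetal germ cells through to round spermatids. PIWIL1 appears in pachytene spermatocytes, binds the abundant pachytene piRNAs and is needed to complete spermiogenesis. At 15 days after birth the leading germ cells of the first wave are in meiotic prophase, so *Piwil1* is in its time of onset.

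Transcription of *Piwil1* and of pachytene piRNA precursors is known to be driven by A-MYB, the product of *Mybl1*. The stretches of sequence just before the starts of *Piwil1*, which had a large difference between genotypes, and of *Piwil4*, which had a small one, are therefore shown. Both are RefSeq promoter windows (GRCm38.p6), ending before the first exon of the gene at that start. Capitals mark the MYB motif, searched as TAACNG or CAACNG on either strand. The first lies at chr5:128813060-128813237 of GRCm39 (forward strand), just before transcript Piwil1-201 and within introns of longer transcripts that start further upstream. Its upstream part overlaps exons of the noncoding *Gm71554* and *4930553I04Rik* on the other strand. The latter had a mean count of 3.5 in controls and 0.5 in cKO, too few counts to compare. In non-stranded libraries these counts also cannot be told from reads of *Piwil1* introns. The second lies at chr9:14652037-14652218 (reverse strand), before the start of the gene.
Piwil1: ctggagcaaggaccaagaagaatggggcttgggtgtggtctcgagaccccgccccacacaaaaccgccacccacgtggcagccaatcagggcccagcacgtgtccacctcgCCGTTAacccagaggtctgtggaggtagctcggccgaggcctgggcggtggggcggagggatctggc
Piwil4: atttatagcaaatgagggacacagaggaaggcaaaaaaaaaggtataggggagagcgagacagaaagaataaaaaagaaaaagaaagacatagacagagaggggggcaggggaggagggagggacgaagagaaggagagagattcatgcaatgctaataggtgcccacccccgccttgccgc
The *Piwil1* stretch holds 1 match, CCGTTA, which is TAACGG read on the other strand. Over the full 250 bases before these RefSeq starts *Piwil1* had 3 matches and *Piwil4* had 0. The further *Piwil1* matches begin at base 178 of the window, across the annotated start of Piwil1-201, and at base 187, after that start. *Piwil4* has 2 windows in RefSeq, and the other, at a start further downstream, held 1 match and no TAACGG. Of 32851 windows of that length, 43.1% held a match to either form of the motif and 2.18% held TAACGG. The *Piwil1* stretch is 66.3% G and C with 11 CG pairs in 178 bases, and that of *Piwil4* is 48.4% with 4 CG pairs in 182 bases. Matches are letters in a window, with no measurement of binding.

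*Piwil1* (ENSMUSG00000029423) spans 128779588 to 128832538 of chromosome 5 (GRCm39, forward strand), *Piwil2* (ENSMUSG00000033644) 70609365 to 70666832 of chromosome 14 (reverse strand) and *Piwil4* (ENSMUSG00000036912) 14607526 to 14652036 of chromosome 9 (reverse strand). All are protein-coding. In the annotation used, no other gene shares exonic bases with *Piwil1* or *Piwil2*. The lncRNA *Gm10706* shares 137 exonic bases with *Piwil4* on the opposite strand, and its mean count was 0 in controls and 0.5 in cKO.

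The libraries held 12584726 to 15907505 expected counts, and 3 counts were worth at most 0.238 CPM, a count scaled to the total of its library. *Mgat2*, the targeted gene, was at 21.69 to 45.59 TPM in controls and at 10.92 to 24.85 TPM in cKO, with control 2 below cKO 1 and cKO 3 (log2 fold change -1.05, edgeR adjusted p = 0.47, DESeq2 adjusted p = 0.024). Germ cell markers were abundant, with *Dazl*, an RNA-binding protein of germ cells, at 398 ± 46.4 TPM in controls and 448 ± 27.8 TPM in cKO (SD, n = 4 each). *Dazl* alone of the 5 general germ cell markers had a log2 fold change above 0 (0.22). The other 4 were below 0, the lowest at -0.44. Sertoli cell RNA was present as well. Its 10 markers summed to 5347.5 to 6496.7 TPM in controls and 5465.1 to 6508.0 TPM in cKO, most of it *Clu*, and *Sox9* was at 57.7 ± 4.29 and 56.7 ± 5.70 TPM (SD, n = 4 each). Library 1 of each genotype was the highest of its group in late meiotic genes, including *Piwil1*. Results are therefore also given for libraries 2 to 4 alone.

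*Piwil4*, the early nuclear member, was low in every library. It was at 2.45, 3.15, 3.17 and 3.73 TPM in controls 1 to 4 and at 3.29, 3.57, 4.44 and 3.47 TPM in cKO 1 to 4, which is 58 to 98 and 90 to 126 expected counts. The genotypes overlapped. Its mean was 3.12 ± 0.524 TPM in controls and 3.69 ± 0.512 TPM in cKO (SD, n = 4 each), and the log2 fold change was 0.35 ± 0.21 (SE), with an adjusted p of 0.65 in edgeR's quasi-likelihood test. An interval of 2 standard errors either side ran from -0.08 to 0.77. The lowest library was control 1 and the highest cKO 3.

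*Piwil2*, the member present through most of germ cell life, was the most even of the members. It was at 187, 143, 166 and 146 TPM in controls 1 to 4 and at 153, 127, 119 and 121 TPM in cKO 1 to 4. cKO 1 lay above controls 2 and 4, and the other 3 cKO libraries lay below every control. The means were 160.3 ± 20.1 TPM in controls and 129.9 ± 15.9 TPM in cKO (SD, n = 4 each). The log2 fold change was -0.33 ± 0.12 (SE), 1.26-fold lower in cKO, with an unadjusted p of 0.020 and an adjusted p of 0.46 in edgeR. In libraries 2 to 4 alone the value was -0.34 and *Piwil2* was called lower (edgeR adjusted p = 9.1e-04), where 4.24% of all genes were called, 3.78% lower and 0.451% higher.

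*Piwil1*, the pachytene member, had by far the widest spread and the largest difference. In controls 1 to 4 it was at 271, 91.9, 134 and 76.4 TPM, a 3.55-fold range among mice of the same genotype. In cKO 1 to 4 it was at 64.8, 26.5, 27.5 and 21.7 TPM, a 2.98-fold range. Every cKO library lay below every control library, although cKO 1 came close to control 4. All cKO lay below all controls in 3.03% of all genes tested, and above them in 2.47%.

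The mean of *Piwil1* was 143.4 ± 88.7 TPM in controls and 35.1 ± 19.9 TPM in cKO (SD, n = 4 each). Its log2 fold change was -2.05 ± 0.61 (SE), 4.13-fold lower in cKO, and edgeR gave an unadjusted p of 0.013 and an adjusted p of 0.44. An exact permutation test of its normalised counts, two-sided, gave p = 0.0286, the smallest that 4 and 4 mice allow. In the edgeR test 0.0396% of all genes were called (adjusted p under 0.05), all of them lower in cKO, and 0 of the 3 PIWI genes were among them. A fold change as low as that of *Piwil1* or lower was found in 3.56% of genes. Run on the same counts, DESeq2, which was used in the original work, called *Piwil1* and neither other member (log2 fold change -2.06, adjusted p = 0.034), out of 1.51% of all genes called, 1.42% lower and 0.0892% higher. With the replicate number as a block, edgeR called *Piwil1* and *Piwil2*, where 7.25% of all genes were called, 6.45% lower and 0.802% higher. The labels do not pair mice by number, so the block fit is given only as an alternative. In libraries 2 to 4 alone the value was -2.04 (edgeR adjusted p = 0.058). *Piwil1* is in a list of genes that the study drew from these same mice, so its direction here is no independent evidence. In these pooled cells, fewer cells that express a gene and less RNA per cell cannot be told apart.

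**Figure D1:**
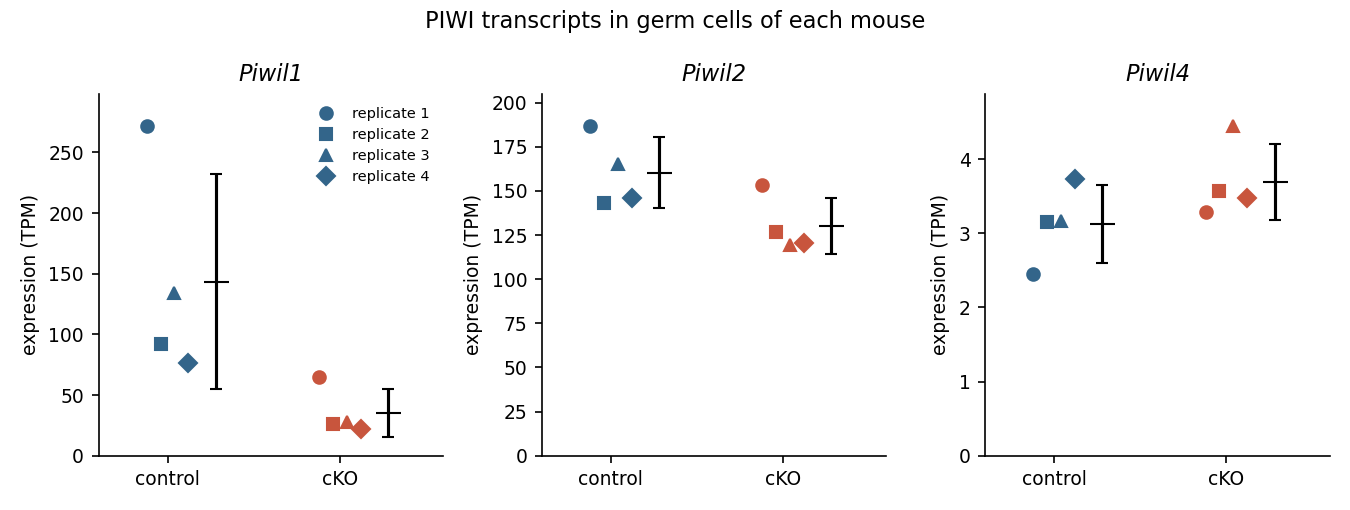
Expression of *Piwil1*, *Piwil2* and *Piwil4* in TPM (vertical axes, linear and from 0) in each control and cKO library, with a symbol for each replicate number and the mean ± SD (n = 4) beside the points. *Piwil1* runs from 76.4 to 271 TPM in controls and from 21.7 to 64.8 TPM in cKO, while the genotypes overlap in *Piwil2* and *Piwil4*.

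The spread of *Piwil1* within a genotype was wide. The SD of its log2 normalised counts around the genotype means was 0.82, larger than that of 98.0% of the 9903 genes with a mean of at least 10 TPM. The same SD was 0.21 for *Piwil2* and 0.28 for *Piwil4*, whose counts are low. These were larger than the SD of 70.4% and 83.6% of those 9903 genes. In both genotypes library 1 was the highest in *Piwil1* and in *Piwil2*, and it was the lowest in *Piwil4*.

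Levels per length ordered the members in the same way in 7 of the 8 libraries, with *Piwil2* first, *Piwil1* second and *Piwil4* last. In control 1 *Piwil1* was above *Piwil2*. In controls the mean levels of *Piwil1* and *Piwil2* differed by less than either SD. In cKO the ranges of *Piwil1* and *Piwil2* did not overlap, and *Piwil4* was below both in every library of either genotype. Of the summed TPM of the 3 genes, *Piwil1* made up 59.0%, 38.6%, 44.3% and 33.8% in controls 1 to 4. In cKO 1 to 4 it made up 29.3%, 16.9%, 18.2% and 14.9%, lower than in any control. *Piwil2* made up 40.5% to 64.5% in controls and 69.2% to 82.7% in cKO, and *Piwil4* 2.9% at most. The sum itself was 306.8 ± 107.8 TPM in controls and 168.7 ± 35.4 TPM in cKO (SD, n = 4 each).

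**Figure D2:**
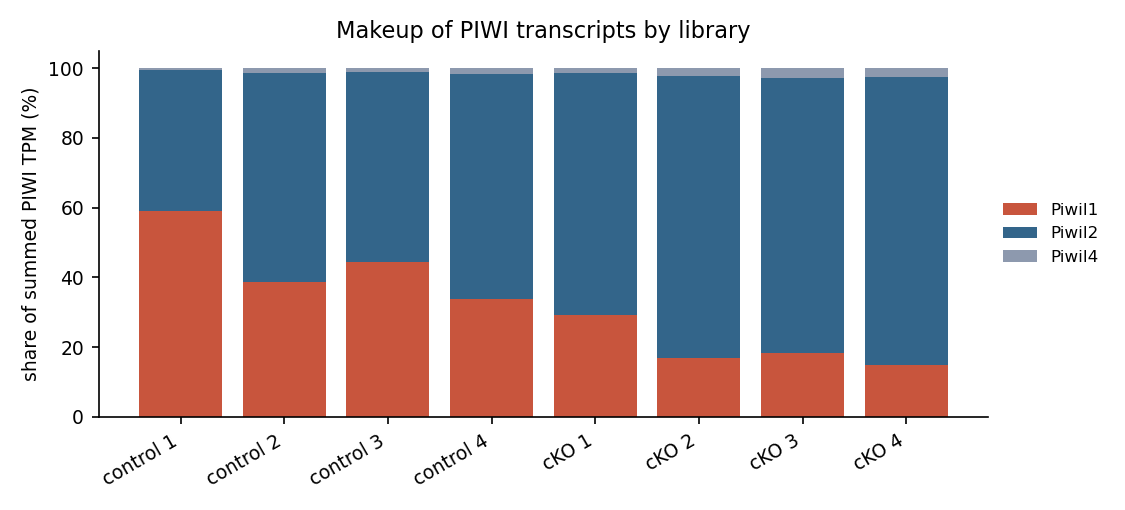
Share of the summed TPM of the PIWI genes (vertical axis, percent) made up by *Piwil1*, *Piwil2* and *Piwil4* in each of the 8 libraries. *Piwil1* takes 33.8% to 59.0% in controls and 14.9% to 29.3% in cKO.

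Ratios within a library do not depend on scaling between libraries, and they show whether members differed by unequal amounts. The ratio of *Piwil1* to *Piwil2* TPM was 1.45, 0.641, 0.809 and 0.524 in controls 1 to 4, and 0.423, 0.209, 0.230 and 0.180 in cKO 1 to 4. It was lower in all 4 cKO libraries than in any control and fell 3.22-fold (log2 difference -1.69, exact permutation test, two-sided, p = 0.0286, and 0.0429 adjusted over the 3 ratios). The ratio of *Piwil1* to *Piwil4* was 20.5 to 110.8 in controls and 6.19 to 19.7 in cKO. It fell 4.72-fold by the same test (exact permutation p = 0.0286, adjusted 0.0429), with cKO 1 close to control 4. With 1 library left out, the exact permutation p was 0.057 without control 1, 2 or 3 for the first ratio and without any library other than cKO 1 for the second. The ratio of *Piwil2* to *Piwil4* was 39.1 to 76.1 in controls and 26.8 to 46.6 in cKO, and the groups overlapped (log2 difference -0.55, exact permutation p = 0.0857). In libraries 2 to 4 alone all 3 ratios were lower in every cKO library than in any control, with log2 differences of -1.66, -2.15 and -0.5. With 3 against 3 mice an exact permutation test cannot give a p below 0.1.

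Genes of other germ cell stages were measured beside the PIWI genes. The 14 pachytene genes, among them *Hspa2*, a meiotic chaperone, *Ldhc*, a testis lactate dehydrogenase, and *Clgn*, a testis chaperone of the ER, had a median log2 fold change of -1.28, where the median of all genes tested was 0.007. Of them 13 had a value below 0, where 48.6% of all genes did. The edgeR test called 0 of the 14, where 0.0396% of all genes were called. An unadjusted p under 0.05 in that test was found for 5, all lower, against 6.28% of all genes lower and 2.62% higher. Summed, the 14 genes were at 3423.2, 1438.9, 1844.3 and 1150.6 TPM in controls 1 to 4 and at 1247.6, 682.4, 699.1 and 677.1 TPM in cKO 1 to 4. Libraries thus ranked 1, 3, 2 and 4 in controls by pachytene genes, the same order as by *Piwil1*. *Hspa2* was at 324 ± 145 TPM in controls and 164 ± 41.1 TPM in cKO, and *Clgn* at 123 ± 61.2 and 50.2 ± 20.0 TPM (SD, n = 4 each). The part of these genes in the *Piwil1* result was not tested.

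In proportion to the pachytene genes, the value of *Piwil1* depended on which of them it was set against. For each 1000 TPM of the 14 genes, *Piwil1* was at 79.3, 63.9, 72.6 and 66.4 TPM in controls 1 to 4 and at 51.9, 38.8, 39.3 and 32.1 TPM in cKO 1 to 4. Every cKO library was below every control on this sum. Against each of the 14 genes alone, all cKO ratios were below all control ratios for 7, and the genotypes overlapped for the other 7. *Piwil1* alone also separated the genotypes, so a ratio to a gene that differed little can do so through *Piwil1*. The 7 were *Nek2*, *Brdt*, *Tbpl1* and *H1f6* (log2 fold changes -0.48, -0.54, -0.42 and 0.04) and *Hspa2*, *Clgn* and *Nme5* (-0.97, -1.37 and -1.43). The share of all genes with such ratios was not computed. Against *Clgn* the ratio was 1.13 ± 0.118 in controls and 0.671 ± 0.106 in cKO, and against *Ldhc* it was 0.296 ± 0.0484 and 0.345 ± 0.127 (SD, n = 4 each). In libraries 2 to 4 the ratio was lower in every cKO library for 9 of the 14 genes and higher in every cKO library for 2, *Pgk2*, a testis glycolytic enzyme, and *Spag6l*, an axonemal protein. In those libraries the log2 fold changes of *Ldhc*, *Spag6l* and *Pgk2* were -2.24, -2.37 and -3.36, beside -2.04 for *Piwil1*. *Pgk2* rested on only 5, 4 and 2 expected counts in cKO 2 to 4, near the floor of 3. Among the 14 genes, *H1f6*, *Pou5f2* and *Ccna1* were also low, with 5, 5 and 2 counts in their lowest libraries. These proportions were chosen after the data were seen and carry no test. *Piwil2* on this scale was at 54.5 to 127 TPM for each 1000 in controls and 123 to 185 in cKO, with overlap.

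**Figure D3:**
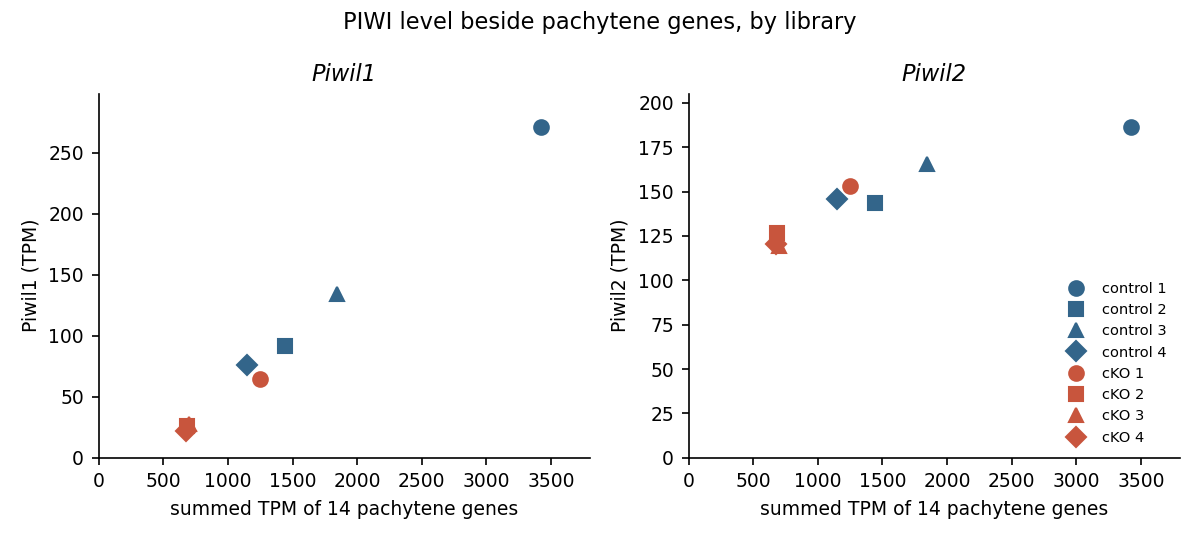
TPM of *Piwil1* (left) and *Piwil2* (right) against the summed TPM of 14 pachytene genes (horizontal axes), 1 point per library, blue for control and red for cKO. Control 1 is farthest out in both, at 3423.2 TPM of pachytene genes and 271 TPM of *Piwil1*, and cKO 2 to 4 lie together at 677.1 to 699.1 TPM of pachytene genes.

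Earlier stages showed smaller values. The undifferentiated spermatogonia markers had a median log2 fold change of 0.21 (11 of 12 tested), differentiating spermatogonia markers 0.16 (9 of 9), markers of leptotene and zygotene, the first steps of meiotic prophase, -0.07 (13 of 13) and general germ cell markers -0.19 (5 of 5), with 0 called by edgeR in each. Unadjusted p-values under 0.05 were found for 2, 1, 3 and 2 genes of these lists, where 6.28% of all genes were lower and 2.62% higher at that level. *Stra8*, which marks meiotic entry, was at 149 ± 13.8 TPM in controls and 171 ± 8.95 TPM in cKO (SD, n = 4 each). *Dmc1*, the meiotic recombinase, was at 36.0 to 62.2 TPM in controls and 53.8 to 72.8 TPM in cKO. Its log2 fold change of 0.33 was the highest of the leptotene and zygotene list, where 7 of 13 were below 0. The lowest of that list, *Spo11*, had -0.54. Of 12 round spermatid markers, 5 were under 1 TPM in every library, with *Prm1* and *Tnp2* at 0 counts throughout, and the 7 tested had a median of -0.53. Markers of other testis cells had medians of 0.04 (Sertoli), 0.02 (Leydig), 0.17 (peritubular), 0.23 (macrophage), -0.13 (endothelial) and 0.10 (blood). Of these 29 genes 0 were called by edgeR, and 1 had an unadjusted p under 0.05.

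Gene-level values from RSEM rest on a mix of transcripts, and the ratio of expected count to TPM gives the mean effective length of that mix. For *Piwil1* it was 3551.0 ± 19.3 bases in controls and 3438.4 ± 216.0 bases in cKO (SD, n = 4 each), with cKO 4 at 3148.5 and the other cKO libraries at 3398.6 to 3605.5. For *Piwil2* it was 3930.9 ± 91.8 and 3812.6 ± 68.4 bases, and for *Piwil4* 2773.2 ± 288.8 and 2951.1 ± 140.0 bases (SD, n = 4 each). The genotypes overlapped in all 3 genes. *Piwil4* varied most, with 2416.5 bases in control 1 and 3022.7 in cKO 2. *Piwil2* is annotated with 1 full transcript of 5499 bases and 2 short ones of 962 and 666 bases, so its length lies between them.

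Other genes of the piRNA pathway were taken as 4 lists of 44 genes, of which 43 were tested. *Tdrd15* was not tested. In the edgeR test 1 of the 43 was called lower, *Adad2*, and 0 higher, where 0.0396% of all genes were called. *Adad2* is also in a list of genes that the study drew from these same mice, so this call is no independent evidence. Of the 43, 8 had an unadjusted p under 0.05, all lower in cKO, against 6.28% of all genes lower and 2.62% higher at that level. In 4 of the 43 every cKO library was below every control, and in 0 above, where 3.03% and 2.47% of all genes did so. The median log2 fold change of the 43 genes was -0.16, and 29 were below 0. The part of the pachytene genes' difference in these values was not tested.

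*Adad2*, a germ cell RNA-binding protein of the pachytene stage, was at 43.6, 36.4, 43.8 and 31.3 TPM in controls 1 to 4 and at 21.4, 19.3, 19.4 and 17.4 TPM in cKO 1 to 4. All cKO libraries were below all controls, and the spread within each genotype was small beside the difference. It fell 1.98-fold (log2 fold change -0.99 ± 0.14, SE, edgeR adjusted p = 0.035). Leaving out control 2 or 3 or cKO 2, 3 or 4 ended this call, with an edgeR adjusted p of up to 0.26, and the log2 fold change stayed between -1.08 and -0.91.

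Genes of pachytene piRNAs and of piRNA maturation had a median log2 fold change of -0.23, and 12 of 13 were below 0. The lowest value was that of *Tdrd6*. *Tdrd6*, a tudor protein and partner of PIWIL1 in the chromatoid body, had a log2 fold change of -2.46 ± 1.07 (SE, edgeR adjusted p = 0.57). It was at 87.3, 14.7, 23.8 and 12.9 TPM in controls 1 to 4 and at 25.5, 1.93, 3.38 and 1.78 TPM in cKO 1 to 4, so that cKO 1 lay above 3 of the controls. Its log2 fold change was -1.44 without control 1 and -3.89 without cKO 1. *Tdrd5*, needed to process pachytene piRNA precursors, had -0.99 ± 0.33 (SE, edgeR adjusted p = 0.47). *Mybl1* itself was at 38.4 ± 6.56 TPM in controls and 32.2 ± 5.28 TPM in cKO (SD, n = 4 each), a log2 fold change of -0.14 ± 0.10 (SE, edgeR adjusted p = 0.69), and *Btbd18*, a second regulator of pachytene piRNA transcription, had 0.11. The trimming nuclease gene *Pnldc1* had -0.10, the methyltransferase gene *Henmt1* -0.35 and the mitochondrial anchor gene *Tdrkh* -0.16.

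The early silencing genes had a median log2 fold change of -0.20, with 11 of 17 below 0 and 0 called by edgeR. An unadjusted p under 0.05 in that test was found for 4, all lower, against 6.28% of all genes lower and 2.62% higher. In 3 of the 17 every cKO library was below every control, where 3.03% of all genes did so. *Tdrd9*, a helicase that acts with PIWIL4, was at 72.7 ± 4.89 TPM in controls and 51.2 ± 4.90 TPM in cKO (log2 fold change -0.50 ± 0.08, SE, edgeR adjusted p = 0.053). *Tdrd12*, a helicase of secondary piRNA production, was at 45.9 ± 8.15 and 31.1 ± 4.29 TPM (log2 fold change -0.70, edgeR adjusted p = 0.14), and *Gpat2*, which associates with PIWIL2, at 73.4 ± 4.93 and 62.1 ± 3.57 TPM (SD, n = 4 each). *Tdrd1*, the tudor partner of PIWIL2, had a log2 fold change of -0.86 (edgeR adjusted p = 0.44) and overlapped between genotypes. DESeq2 called *Tdrd1*, *Tdrd9*, *Tdrd12* and *Adad2* among the 43 genes, all lower, where it called 1.42% of all genes lower and 0.0892% higher.
Genes that act with or after PIWIL4 in DNA methylation had log2 fold changes of 0.06 for *Dnmt3a*, 0.15 for *Dnmt3b* and 0.17 for *Spocd1*. *Dnmt3l* was at 0.650 ± 0.531 TPM in controls and 1.72 ± 1.52 TPM in cKO (SD, n = 4 each), on 2 to 19 counts.

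The germ granule and PIWI-modifying genes had a median of 0.03, and 3 of 9 were below 0. *Ddx4*, the germ granule helicase, was at 176 ± 25.3 TPM in controls and 132 ± 9.46 TPM in cKO (SD, n = 4 each, log2 fold change -0.41, edgeR adjusted p = 0.34), with cKO 1 just above control 4. *Prmt5*, which methylates arginines of PIWI proteins, and its partner *Wdr77* had 0.06 and 0.05. The AGO genes, the microRNA-binding side of the family, had a median of -0.10, from -0.40 for *Ago4* to 0.11 for *Ago1*, with 0 of 4 called by edgeR and 0 with an unadjusted p under 0.05.

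**Figure D4:**
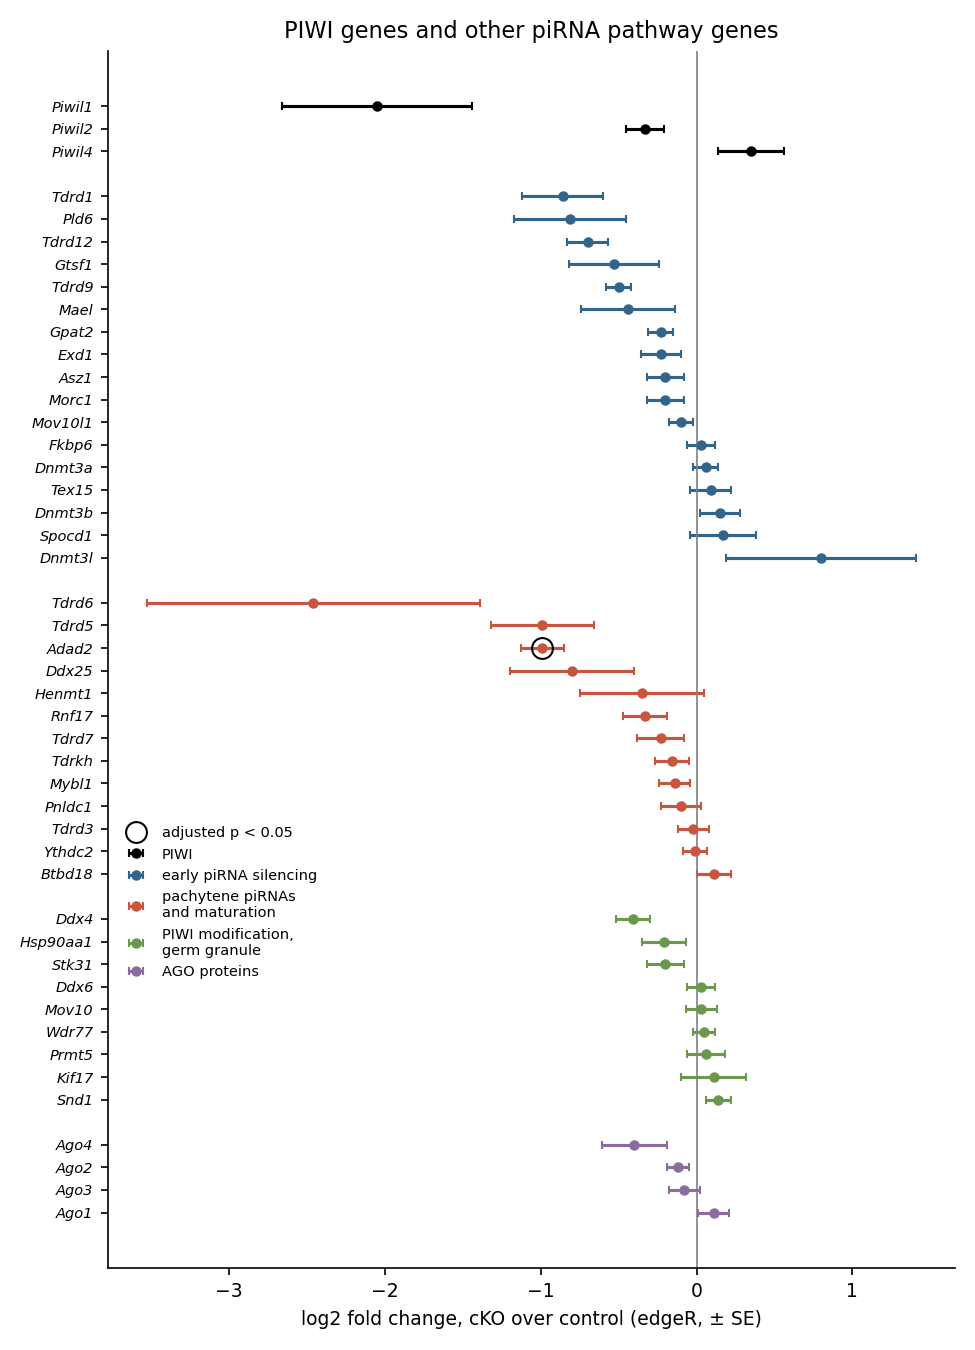
Log2 fold change, cKO over control, with its standard error from edgeR (horizontal axis) for the 3 PIWI genes and 43 other genes of the pathway lists (vertical axis, grouped by list). *Tdrd6* and *Piwil1* lie farthest to the left at -2.46 (-3.89 to -1.44 with 1 library left out) and -2.05, and a ring marks *Adad2*, the gene with an adjusted p under 0.05.

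The genes most like each member were those with the highest Pearson r of log2(TPM + 1) over the 8 libraries, among 13669 other protein-coding genes with a mean of at least 1 TPM. This measure ignores the size of change, describes 8 libraries that share a genotype difference and the high library 1, and carries no test. For *Piwil1* they were *Smpd5* (r = 0.997), *Zmynd10* (0.996), *Tdrd1* (0.995), *Gm45861* (0.995) and *Ccdc74a* (0.995). *Zmynd10*, an assembly factor of axonemal dyneins, was at 102 ± 60.9 TPM in controls and 26.4 ± 13.1 TPM in cKO (SD, n = 4 each), and ordered the libraries exactly as *Piwil1* did (Spearman's rho 1.0). After each genotype's mean was subtracted, the r of these 5 genes was 0.985 to 0.991. They then ranked from 23 to 77 among the 13669 genes, so other genes were closer to *Piwil1* on that measure. For *Piwil2* the 5 were *4930579G24Rik*, *Stk33*, *Dnah17*, *Gm128* and *Slc2a3* (r from 0.989 to 0.992), with log2 fold changes from -0.70 to -2.28. For *Piwil4* they included *Rint1*, *Akr1b8*, *Zfp710* and *Cmtm6* (r from 0.960 to 0.976), with log2 fold changes between 0.07 and 0.17.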

How the data were processed

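Germ cell RNA of 8 mice, 4 control and 4 cKO, was sequenced as 1 library each. The authors aligned reads to GRCm39 with STAR 2.7.9a and deposited RSEM 1.3.3 expected counts per gene (Ensembl 105), not normalized between samples. The authors also deposited TPM, scaled within each library. Expected counts were rounded (15.2% of those above 0 were not whole). Genes with at least 1 TPM in at least 1 library were tested in R 4.3.3 by the robust quasi-likelihood method of edgeR 4.0.16 after TMM scaling, with Benjamini-Hochberg adjustment over all 20187 genes and a threshold of 0.05. DESeq2 1.42.0 and limma 3.58.1 (limma-trend) were alternatives. The labels give separate mice as replicates. Ratios of TPM were compared by two-sided exact permutation over the 70 assignments of 4 and 4 mice. Positions and transcripts came from GENCODE release M39. It names 20075 of the tested genes, and for single-transcript genes expected count over TPM against annotated length gave the scale of effective lengths. Promoters came from RefSeq (2 of 3 members) and were matched to GRCm39. The floor of 3 counts covers counting error only.
The members and lists were chosen with earlier results of these data known. Named genes are the 3 members, *Mgat2*, listed pathway and marker genes, the 5 genes most alike to each member (1 of them is not reported here), and genes that overlap a member. Fits were tested on simulated data. The alternatives were other normalizations, filters and tools, a replicate block and leaving out each library. Libraries 2 to 4 alone, proportions to pachytene genes and the MYB motif were added after the data were seen.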

Additional observations from a re-analysis of the deposited data

Results flagged for a closer look

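Within each group of 4 libraries, single values were compared with the rest of their group by the gap to the nearest library over the group's range, in 50 groups. Chance flags about 1 in 20 groups where groups are independent. These groups are not, since they reuse the same libraries and some share genes. Among the 50 groups 8 values stood out. All 8 were library 1 of its genotype. For the PIWI genes these were *Piwil1* at 64.8 TPM in cKO 1, where the other cKO libraries were at 21.7 to 27.5, and the log2 ratio of *Piwil1* to *Piwil4*, 4.30 in cKO 1. Also in cKO 1, the summed TPM stood out for the early piRNA silencing genes (1253.8), the pachytene genes (1247.6) and the round spermatid genes (51.6). In control 1 it stood out for the round spermatid genes, high at 136.4, and for the peritubular (380.3) and endothelial genes (4.88), both the lowest of the controls.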

How the results depend on the processing

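No member changed sign under any setting. The log2 fold change of *Piwil1* was between -2.06 and -1.96 over the 10 other fits and between -2.58 and -1.50 when each library was left out in turn. *Piwil1* was called with DESeq2 (-2.06, adjusted p = 0.034) and with the replicate block in edgeR (-2.03, adjusted p = 1.2e-16), and in no other fit, with an adjusted p of up to 0.82. *Piwil2* was called under the block (-0.33, edgeR adjusted p = 1.9e-04) and in libraries 2 to 4 alone (-0.34), and otherwise lay between -0.44 and -0.23. *Piwil4* was called in no fit, at 0.19 to 0.42. The replicate numbers were not taken to pair mice, since deviations from the group means correlated at 0.697, 0.296, 0.087 and 0.324 for numbers 1 to 4. cKO 1 and 4 correlated best with their own number, cKO 2 with control 4 (0.331) and cKO 3 with control 2 (0.208). The block moved the genes called over all genes from 8 to 1464, and those of the pathway lists from 1 to 13.
Over all genes, 304 were called with DESeq2, 18 with upper-quartile normalization, 17 with library totals, 35 without a filter, 855 in libraries 2 to 4 alone and 0 to 32 when a library was left out in edgeR. With edgeR's filterByExpr and with limma-trend on log2(TPM + 1) and log2(TPM + 0.1) 0 were called (1665, 1816 and 1892 at an unadjusted p under 0.05). Of the 43 pathway genes, in that order, 4, 2, 2, 3, 5 and 0 to 3 were called, and 0 with filterByExpr and both limma fits. Of the pachytene genes, 2 were called with DESeq2, 10 with the replicate block and 4 in libraries 2 to 4, where edgeR on all libraries called 0. The cause of these differences was not tested.
The log2 difference in the ratio of *Piwil1* to *Piwil2* was -1.95 to -1.40 with a library left out and -1.66 in libraries 2 to 4, and for *Piwil1* to *Piwil4* it was -2.63 to -1.76 and -2.15. The exact permutation p was then 0.029 to 0.057, or 0.1 in libraries 2 to 4, the smallest possible there. Of the 5 genes most alike, Spearman's rho kept 1 for *Piwil1*, 0 for *Piwil2* and 1 for *Piwil4*, and log2(TPM + 0.1) kept 3 for *Piwil2*. Counts of 58 to 126 limit what can be seen of *Piwil4*.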
